A study of Homo sapiens with 11 samples.

Results

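The comparison covers ES-2, an ovarian clear cell adenocarcinoma line, against MV3, an amelanotic melanoma line, by small RNA sequencing. Of the 11 libraries of the series, 4 belonged to it: 2 of ES-2 and 2 of MV3, described as biological replicates. Both lines were parental and untreated, were grown in DMEM with 10% FBS and were harvested 48 h after seeding. All 4 libraries were made from 50 ng of total RNA with the NEXTflex small RNA kit, so the preparation did not differ between the lines. Each tumour type was represented by a single line, and a difference between ovary and melanoma cannot be told apart from a difference between these lines. Entries of the same mature miRNA were summed, each library was rescaled to 1000000 assigned reads (CPM), and a miRNA was kept when its mean reached 10 CPM in either line. Of 2588 mature miRNAs, 346 were kept.

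MicroRNAs are cut from hairpin precursors, which often lie in clusters transcribed as a unit, and either arm of a hairpin (5p or 3p) can yield the mature strand. The mature strand guides Argonaute proteins to mRNAs, mostly by pairing of its seed, bases 2 to 8 from the 5′ end, and miRNAs that share a seed form a family with largely shared targets. Let-7, miR-30, miR-186 and miR-340 are of interest here because the study asked which miRNAs could target transcripts protected by the RNA-binding protein IGF2BP1.

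The libraries held 1663181 and 2294994 assigned reads for ES-2 and 1173902 and 1549279 for MV3, with 608 to 724 miRNAs detected per library. The 10 most abundant miRNAs took 76.8% and 76.5% of the reads in ES-2 and 70.5% and 69.5% in MV3. Taken as lists, markers of melanocytes and of epithelium did not separate the lines. Of 4 melanocyte-lineage arms only miR-204-5p was detected, with 0 and 5 reads in ES-2 and 2 reads in each MV3 library, and all 20 arms of the X-linked miR-506 to miR-514 cluster were at 0 in all 4 libraries. Thus defining melanocytic miRNAs were absent or nearly so from the melanoma line. The 11 epithelial arms (miR-200 family and miR-205) summed to 52.3 and 47.5 CPM in ES-2 and to 34.1 and 54.9 CPM in MV3, and 39 pluripotent and placental arms were at 0 throughout. The 2 epithelial arms that were kept went in opposite directions. MiR-200b-3p, kept only through MV3, had means of 6.74 CPM in ES-2 and 19.8 CPM in MV3, and miR-200c-3p 38.1 and 21.8 CPM.

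The mature sequences behind the largest differences and the family contrasts are shown first, as RefSeq gives them (GRCh38.p14), with the seed in capitals. The first group holds miRNAs higher in ES-2, the second those higher in MV3, and the third members of families that differed in opposite directions.
miR-142-3p: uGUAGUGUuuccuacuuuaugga
miR-142-5p: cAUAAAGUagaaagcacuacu
miR-224-5p: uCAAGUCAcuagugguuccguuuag
miR-452-5p: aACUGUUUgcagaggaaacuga
miR-3689a-5p: uGUGAUAUcaugguuccuggga
miR-3689f: uGUGAUAUcgugcuuccuggga
miR-10a-5p: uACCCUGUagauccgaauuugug
miR-30a-5p: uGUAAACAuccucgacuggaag
miR-143-3p: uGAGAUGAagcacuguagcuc
miR-34b-3p: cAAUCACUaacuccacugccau
miR-193a-5p: uGGGUCUUugcgggcgagauga
miR-129-5p: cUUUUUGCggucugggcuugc
miR-23b-3p: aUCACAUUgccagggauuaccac
miR-27b-3p: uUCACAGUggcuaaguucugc
miR-24-3p: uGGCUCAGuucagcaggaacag
miR-196a-5p: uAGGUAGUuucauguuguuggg
miR-196b-5p: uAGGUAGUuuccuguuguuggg
miR-100-5p: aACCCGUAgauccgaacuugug
miR-99b-5p: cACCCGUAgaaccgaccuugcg
miR-125b-5p: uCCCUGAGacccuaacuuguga
miR-125a-5p: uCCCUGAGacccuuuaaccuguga

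The lines differed in most of the miRNAs tested. With limma on log2(CPM + 1) and Benjamini-Hochberg adjustment at 0.05, 220 of 346 miRNAs (63.6%) were called, 74 (21.4%) higher in ES-2 and 146 (42.2%) higher in MV3. The balance depended on the scale. With TMM factors (trimmed mean of M-values, which centre the bulk of miRNAs on each other), 189 (54.6%) were called, 96 (27.7%) higher in ES-2 and 93 (26.9%) higher in MV3, and the median log2 difference of all tested miRNAs (ES-2 minus MV3 throughout) moved from -0.46 on CPM to -0.016. Calls higher in ES-2 were 33.6% of all calls on CPM and 50.8% with TMM. No miRNA was called in opposite directions, and 143 (41.3%) were called the same way on CPM, with TMM, with DESeq2 size factors and after quantile normalization, 65 higher in ES-2 and 78 higher in MV3. Below, a direction held with all 4 scalings unless an exception is given. The filter kept 24 miRNAs only through their ES-2 mean and 64 only through their MV3 mean, and for these the direction of the difference was set by the filter.

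Differences of more than 4-fold on the fitted scale were found for 77 called miRNAs, of which 22 were higher in ES-2 and 55 in MV3. The CPM of the 2 ES-2 and the 2 MV3 libraries did not overlap for 295 miRNAs (85.3%). Within a line, the SD of a miRNA on the log2 scale was 0.52 in ES-2 and 0.38 in MV3 over the tested miRNAs, and 0.18 in each line for those with a mean of 100 CPM or more. The plot of levels in ES-2 against MV3 shows a tight band at high abundance and a wide fan below 1000 CPM.

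**Figure D1:**
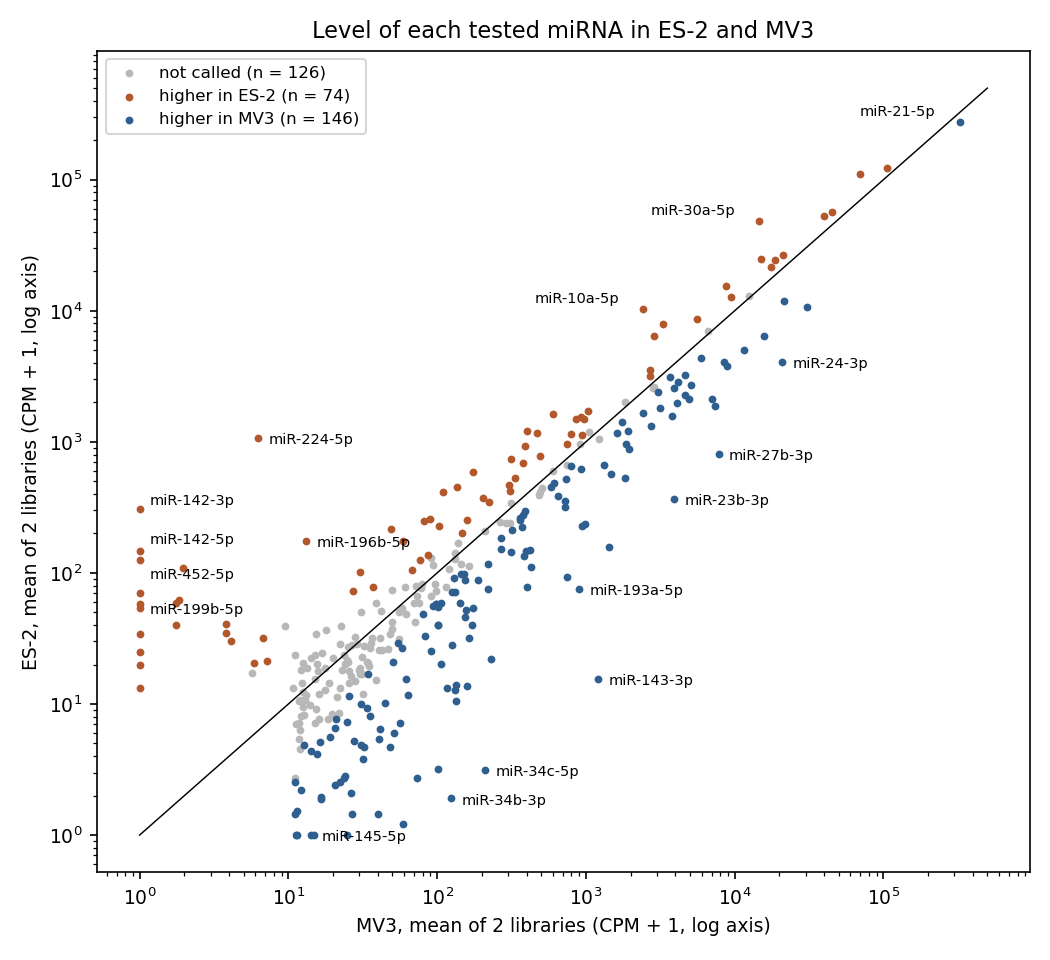
Mean CPM + 1 of the 346 tested miRNAs in MV3 (x axis, log) and ES-2 (y axis, log), 2 libraries each; colours give the call of the limma test on CPM and the line marks equal levels. Points at 1 on an axis had no read in that line, such as miR-142-3p in MV3 and miR-145-5p in ES-2.

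The largest difference in favour of ES-2 was miR-142, a hairpin known from blood cells, where it is among the most abundant. MiR-142-3p stood at 326 and 286 CPM in ES-2 and had no read in either MV3 library. Its partner miR-142-5p was at 153 and 140 CPM in ES-2 and likewise at 0 in MV3. With 3 reads over both MV3 libraries as the floor (1.10 CPM), miR-142-3p was at least 275-fold and miR-142-5p at least 132-fold higher in ES-2 (limma adjusted p = 2.02e-05 and 4.58e-05). The hairpin lies at chr17:58331232-58331318 (hg38, minus strand) in an exon of the lncRNA MIR142HG.

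Of the other blood-cell markers, miR-150-5p had 2 reads and miR-451a 1 read in ES-2 replicate 1, and none were found in the other 3 libraries. MiR-223 and miR-144 were at 0 in all 4. The 9 haematopoietic arms together summed to 481 and 427 CPM in ES-2, almost wholly miR-142. In bulk cultures, a level per cell and the number of cells that carry a miRNA cannot be told apart. In A-549, a lung line prepared the same way, both miR-142 arms were also at 0.

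MiR-224 and miR-452, which lie about a kilobase apart on chromosome X (chrX:151958578-151959712, minus strand) within an exon of GABRE, a GABA receptor subunit gene, were next. MiR-224-5p reached 1013 and 1143 CPM in ES-2 against 3.41 and 7.10 CPM in MV3, a log2 difference of 7.49 ± 0.33 (SE, limma adjusted p = 2.02e-05). MiR-452-5p was at 118 and 132 CPM in ES-2 and at 0 in both MV3 libraries, at least 114-fold higher in ES-2. All 3 tested miRNAs of this cluster were called higher in ES-2, beside 21.4% of all tested miRNAs. Each of the 3 passed the filter only through ES-2, which sets its direction. In A-549, miR-224-5p was higher still, at 5782 and 6190 CPM, and miR-452-5p stood at 491 and 537 CPM, so the pair did not set ES-2 apart from every other line.

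The miR-3689 family, a set of near-identical miRNAs on chromosome 9, was found in ES-2 and hardly in MV3. Its 8 arms summed to 288 and 290 CPM in ES-2 and to 2.56 and 2.58 CPM in MV3. The 4 tested members passed the filter only through ES-2, which sets their direction. MiR-3689f was at 110 and 105 CPM in ES-2 and at 0 and 1.94 CPM in MV3, which is 3 reads. The ratio of pooled reads was 97.5 (95% counting interval 33.1 to 474). MiR-3689a-5p, miR-3689b-5p and miR-3689e have identical sequences, so their separate values (54.1 to 64.9 CPM in ES-2) are a division of the same reads and are uncertain. MiR-3689f differs from them by A10G and G13C (miR-3689a-5p's base, position from the 5′ end, miR-3689f's base). In A-549 these 4 miRNAs were at 0.

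Among miRNAs encoded in the HOX clusters, which carry the genes of body-axis identity, the members split. MiR-10a-5p, from within HOXB3, was at 10271 and 10397 CPM in ES-2 and at 2447 and 2376 CPM in MV3, 4.29-fold higher in ES-2 (limma adjusted p = 3.89e-06). MiR-196b-5p, from the HOXA9 locus, was at 185 and 165 CPM in ES-2 against 9.37 and 14.8 CPM in MV3. Its family member miR-196a-5p, encoded in the HOXB7 and HOXC6 loci, went the other way, with 209 and 263 CPM in ES-2 and 869 and 1088 CPM in MV3. These 2 sequences differ only by A12C (miR-196a-5p's base first), outside the seed.

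The log2 difference was 3.78 ± 0.31 (SE) for miR-196b-5p and -2.05 ± 0.16 (SE) for miR-196a-5p (limma adjusted p = 1.54e-04 and 1.23e-04). Summed over the shared seed, the miR-196 family was at 394 and 428 CPM in ES-2 and 878 and 1102 CPM in MV3, higher in MV3 (adjusted p = 7.14e-04, limma over seed families). MiR-615-3p, from the HOXC cluster, was at 275 and 227 CPM in ES-2 and at 141 and 175 CPM in MV3 (limma adjusted p = 0.0171), a call lost without ES-2 replicate 1, ES-2 replicate 2 or MV3 replicate 1 (adjusted p = 0.170, 0.0909 and 0.113). MiR-10b-5p was at 2531 and 2593 CPM in ES-2 and 2767 and 2886 CPM in MV3, not called on CPM and called higher in ES-2 with TMM. Of 7 tested HOX cluster miRNAs, 4 were called higher in ES-2 (2 without either ES-2 library, 2 without MV3 replicate 1 and 3 without MV3 replicate 2) and 1 higher in MV3, beside 21.4% and 42.2% of all tested miRNAs.

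MiR-30a-5p was the most abundant miRNA with a large difference. It stood at 48886 and 47275 CPM in ES-2 and at 14722 and 14463 CPM in MV3, 3.29-fold higher in ES-2 (log2 1.72 ± 0.056, SE, limma adjusted p = 6.15e-06). MiR-30c-5p followed with 6234 and 6621 CPM in ES-2 against 3093 and 2661 CPM in MV3. MiR-30d-5p was higher in MV3, with 12225 and 11690 CPM in ES-2 and 21157 and 21665 CPM in MV3 (log2 -0.84 ± 0.057, SE, limma adjusted p = 7.99e-05). The family's 11 arms added up to 73260 and 71368 CPM in ES-2 and 43073 and 43016 CPM in MV3. Of 10 tested arms, 5 were called higher in ES-2 and 4 higher in MV3 (5 and 2 with TMM), beside 21.4% and 42.2% of all tested miRNAs. Of the 4, 2 (miR-30b-3p and miR-30d-3p) passed the filter only through MV3, which sets their direction. The call of miR-30e-5p (log2 0.38) was lost without ES-2 replicate 1 or 2 (adjusted p = 0.0906 and 0.0823), and those 2 fits left 3 arms higher in ES-2 and 2 or 3 higher in MV3. With MV3 replicate 1 or 2 left out, 4 arms were called higher in ES-2 and 2 higher in MV3.

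Other miRNAs among the 10 largest differences in favour of ES-2 were miR-138-5p, miR-92a-1-5p and miR-424-5p. MiR-138-5p was at 235 and 199 CPM in ES-2 and at 42.6 and 53.6 CPM in MV3. MiR-92a-1-5p, the minor arm of a hairpin of the proliferation-linked miR-17-92 cluster, was at 381 and 445 CPM in ES-2 and 112 and 105 CPM in MV3, while the major arm miR-92a-3p, which is shared with a second locus, differed far less (52513 and 53543 against 38638 and 41662 CPM). MiR-424-5p, a seed mate of miR-16, was at 617 and 563 CPM in ES-2 and 193 and 155 CPM in MV3, and miR-503-5p of the same X-linked cluster at 1200 and 1119 against 455 and 486 CPM. For miR-138-5p, miR-92a-1-5p and miR-424-5p, libraries without overlap between the lines were a condition of being named. Such separation held for 295 of 346 tested miRNAs (85.3%). MiR-155-5p, known for its part in immune activation, was at 7812 and 8043 CPM in ES-2 against 2832 and 3789 CPM in MV3 (log2 1.27 ± 0.14, SE, limma adjusted p = 4.32e-04), with an adjusted p of 0.0512 and 0.0524 without ES-2 replicate 1 and 2. The call of miR-92a-3p was lost in the same fits (log2 0.42 and 0.39). Its rank was the same in every library, so quantile normalization leaves it no difference by construction.

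**Figure D2:**
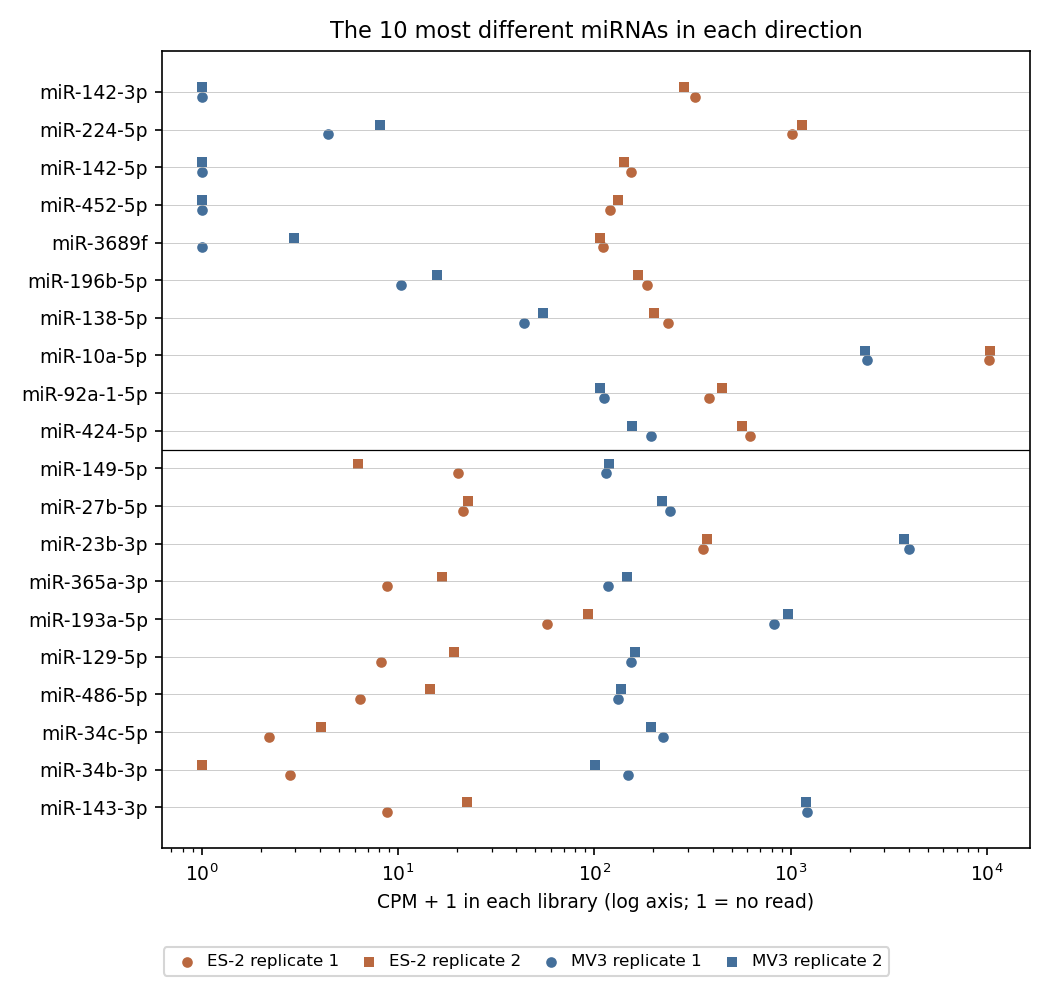
CPM + 1 (log x axis) in each of the 4 libraries for the 10 called miRNAs with the largest log2 difference in each direction, mean of at least 100 CPM in the higher line; orange is ES-2, blue is MV3, circles are replicate 1 and squares replicate 2. The 2 libraries of a line sit close together except at low levels, as for miR-149-5p in ES-2 (19.2 and 5.23 CPM).

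In favour of MV3, the largest difference was miR-143-3p, a miRNA abundant in smooth muscle and fibroblasts. It was at 7.82 and 21.4 CPM in ES-2 and at 1216 and 1197 CPM in MV3, a log2 difference of -6.43 ± 0.42 (SE, limma adjusted p = 7.34e-05). MiR-145-5p, from the neighbouring hairpin in the lncRNA CARMN, was at 0 in both ES-2 libraries and at 7.67 and 18.7 CPM in MV3, at least 18.4-fold higher in MV3. In A-549 the means of miR-143-3p and miR-145-5p were 1539 and 15.3 CPM, so the pair did not set MV3 apart from every other line. In PANC-1, a pancreatic line with 1 library, they were at 29.8 and 0 CPM. MiR-214-3p was at 0 and 0.871 CPM in ES-2 (2 reads) and at 29.0 and 49.1 CPM in MV3, a pooled read ratio of 79.9 (95% counting interval 21.6 to 668).

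These are members of a mesenchymal marker list, of which 6 of 7 tested arms were called higher in MV3 and 1 higher in ES-2, beside 42.2% and 21.4% of all tested miRNAs. Of the 7, 2 (miR-145-5p and miR-214-3p) passed the filter only through MV3 and 1 (miR-199b-5p) only through ES-2, which sets their direction. Among the 6, miR-199a-3p and miR-199b-3p have the same mature sequence, so their 2 calls are not separate observations. Apart from these, the 6 held miR-143-3p and miR-199a-5p, the latter being the opposite arm of the miR-199a hairpins. Summed, the list's 10 arms stood at 6729 and 6843 CPM in ES-2 and 15490 and 14741 CPM in MV3. Most of that sum was miR-199a-3p (4039 and 4071 against 8771 and 8078 CPM) and miR-199b-3p, which have identical mature sequences, so that the division of reads between them is uncertain. The exception was miR-199b-5p, which belongs to 1 hairpin only: it was at 40.3 and 65.4 CPM in ES-2 and at 0 in both MV3 libraries, at least 49.8-fold higher in ES-2 (limma adjusted p = 1.45e-04). MiR-199a-5p was in contrast at 659 and 680 CPM in ES-2 and 1234 and 1409 CPM in MV3. Whether the miR-199b hairpin gave any of the reads assigned to miR-199b-3p in MV3 was not tested.

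MiR-34b and miR-34c, from the p53-linked hairpin cluster at chr11:111512938-111513515, were close to absent in ES-2. MiR-34c-5p had 2 and 7 reads in ES-2, the latter 3.05 CPM, and was at 223 and 194 CPM in MV3 (log2 -6.13 ± 0.42, SE, limma adjusted p = 8.09e-05). MiR-34b-3p was at 1.80 and 0 CPM in ES-2 (3 reads) and at 147 and 100 CPM in MV3, a pooled read ratio of 159 (95% counting interval 53.9 to 775). MiR-34c-3p was at 0 in both ES-2 libraries and at 13.6 and 14.2 CPM in MV3. In A-549 and PANC-1, miR-34c-5p stood at 119 CPM (mean) and 36.7 CPM. The 4 tested of the 11 arms of the miR-34 and miR-449 list passed the filter only through MV3, which sets their direction. The call of miR-34b-5p was lost when either MV3 library was left out (adjusted p = 0.0854 and 0.0763).

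The list of neuronal miRNAs gave no common direction. MiR-137, known to target the melanocyte factor MITF, was at 0 and 3.49 CPM in ES-2 and at 58.8 and 85.8 CPM in MV3 (limma adjusted p = 0.00198). It passed the filter only through MV3, which sets its direction. MiR-9-5p was at 216 and 301 CPM in ES-2 and at 124 and 52.9 CPM in MV3 (limma adjusted p = 0.0144), a call lost without ES-2 replicate 1, ES-2 replicate 2 or MV3 replicate 2 (adjusted p = 0.139, 0.213 and 0.0609). MiR-128-3p was at 1650 and 1677 CPM in ES-2 and 2519 and 2340 CPM in MV3, higher in MV3 on CPM, not called with TMM, and at a log2 difference of 0.019 after quantile normalization. MiR-124 was at 0 in all 4 libraries. MiR-129-5p, a brain-enriched miRNA outside this list, was at 7.22 and 18.3 CPM in ES-2 and 153 and 161 CPM in MV3.

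The miR-23, miR-27 and miR-24 clusters, a pair of paralogous transcripts on chromosomes 9 and 19, gave a uniform direction across many abundant miRNAs. Of 10 tested arms, 9 were called higher in MV3 (8 with TMM) and none higher in ES-2, beside 42.2% of all tested miRNAs higher in MV3. MiR-23b-5p, among the 9, passed the filter only through MV3, which sets its direction. The summed level of these clusters was 18436 and 18706 CPM in ES-2 and 68625 and 68549 CPM in MV3. The chromosome 9 copy, at chr9:95085208-95086088 within AOPEP, an aminopeptidase gene, differed most. MiR-23b-3p was at 356 and 375 CPM in ES-2 and 4017 and 3787 CPM in MV3, and miR-27b-3p at 771 and 843 CPM against 7754 and 7861 CPM, 10.7-fold and 9.68-fold higher in MV3 (limma adjusted p = 1.95e-06 for each). MiR-27b-5p, the minor arm, differed by a similar log2 value (-3.39 ± 0.21, SE).

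The chromosome 19 copy differed less. MiR-23a-3p was at 10462 and 10790 CPM in ES-2 and 31785 and 29182 CPM in MV3, and miR-27a-3p at 2377 and 2181 CPM against 4293 and 4960 CPM. In ES-2, miR-27a-3p exceeded miR-27b-3p, and in MV3 the order was turned. MiR-27a-3p and miR-27b-3p differ only by C19U (miR-27a-3p's base first), and the sources used here do not say to which of them reads ending before this base were assigned. MiR-24-3p, encoded by both copies, was at 4052 and 4134 CPM in ES-2 and 19920 and 21782 CPM in MV3 (log2 -2.35 ± 0.066, SE, limma adjusted p = 3.89e-06). In A-549, miR-23b-3p and miR-27b-3p were at 6575 to 7036 CPM and 13055 to 14411 CPM, and in PANC-1, a pancreatic line with 1 library, at 3764 and 8124 CPM. ES-2 was thus the lowest of these 4 lines for both.

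Further miRNAs among the 10 largest differences in favour of MV3 were miR-193a-5p, miR-365a-3p, miR-486-5p and miR-149-5p. In PANC-1 they stood at 1504, 175, 1356 and 296 CPM in turn, and in A-549 at means of 135, 130, 202 and 99.4 CPM. MiR-193a-5p was at 56.5 and 91.9 CPM in ES-2 and at 823 and 968 CPM in MV3. MiR-365a-3p, from the cluster with miR-193b on chromosome 16, was at 7.82 and 15.7 CPM in ES-2 and at 117 and 146 CPM in MV3. It shares its sequence with miR-365b-3p of chromosome 17, so its locus cannot be assigned. MiR-486-5p, known from red blood cells and muscle, was at 5.41 and 13.5 CPM in ES-2 and 131 and 136 CPM in MV3. It passed the filter only through MV3, which sets its direction. MiR-149-5p was called with 114 and 117 CPM in MV3 (limma adjusted p = 0.00335), a call lost without MV3 replicate 1 or 2 (adjusted p = 0.0732 and 0.0737).

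For 15 tested miRNAs a line had no read in either of its libraries. Each of them passed the filter only through the other line, which sets its direction. The 10 at 0 in both MV3 libraries were both arms of miR-142, miR-452 and miR-708, together with miR-3689b-5p, miR-199b-5p, miR-651-5p and miR-6720-3p. The 5 at 0 in both ES-2 libraries were miR-145-5p, miR-34c-3p, miR-486-3p, miR-548h-5p and miR-1269b, with fold differences of at least 13.1 to 32.5. MiR-708, miR-651-5p, miR-6720-3p, miR-486-3p, miR-548h-5p and miR-1269b were named after their values were seen. A count of 0 in both libraries allows up to 0.758 CPM in ES-2 and 1.10 CPM in MV3, and these limits cover counting error only.

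The imprinted miRNA cluster of chromosome 14, which is expressed from the maternal allele, was low in both lines and uneven between the ES-2 libraries. Its 92 arms summed to 312 and 300 CPM in MV3, but to 6.61 CPM (11 reads, 4 arms) in ES-2 replicate 1 and 81.9 CPM (188 reads, 40 arms) in ES-2 replicate 2. The 8 tested arms all passed the filter only through MV3, which sets their direction. Of these, 7 were called (4 after quantile normalization and 5 in DESeq2, 7 without ES-2 replicate 2, 4 without ES-2 replicate 1 and 3 without either MV3 library), beside 42.2% of all tested miRNAs higher in MV3. MiR-409-3p, the most abundant, was at 0 and 7.41 CPM in ES-2 and 67.3 and 26.5 CPM in MV3 (limma adjusted p = 0.0201), with adjusted p = 0.127, 0.184 and 0.103 without ES-2 replicate 1, MV3 replicate 1 and MV3 replicate 2. MiR-369-3p was at 4.81 and 6.10 CPM in ES-2 and 46.0 and 34.2 CPM in MV3. The same ES-2 library also held more of the liver miRNA miR-122-5p (3.61 and 24.8 CPM in ES-2, not called against MV3). In A-549 and PANC-1 the cluster was far more abundant, with sums of 8751 and 8597 CPM and of 32489 CPM. What made the ES-2 libraries uneven was not tested.

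Of the 10 most abundant miRNAs, miR-30a-5p and miR-23a-3p differed most (3.29-fold and 2.87-fold) and the other 8 by less. Quantile normalization gives a miRNA that holds the same rank in every library a log2 difference of 0 by construction. MiR-21-5p, a miRNA raised in many solid tumours, led all 4 libraries, with 282176 and 270352 CPM in ES-2 and 331546 and 321096 CPM in MV3. It was called higher in MV3 on CPM (log2 -0.24 ± 0.068, SE, limma adjusted p = 0.0241), but stood at 0.21 in favour of ES-2 with TMM and at 0 after quantile normalization, and the call was lost without any 1 of the 4 libraries (adjusted p = 0.423, 0.516, 0.0851 and 0.0698). MiR-222-3p was at 55432 and 57520 CPM in ES-2 and 44646 and 45487 CPM in MV3, and miR-221-3p at 24330 and 24876 CPM against 20462 and 17051 CPM. All 4 arms of this X-linked pair, which represses the cell cycle inhibitor p27, were called higher in ES-2, beside 21.4% of all tested miRNAs. None of the 4 calls held without either ES-2 library (adjusted p = 0.0620 to 0.216), and miR-222-3p, which held the same rank in all 4 libraries, did not differ after quantile normalization (log2 0). MiR-29a-3p was at 25637 and 24430 CPM in ES-2 and 14931 and 15028 CPM in MV3 (log2 0.74 ± 0.057, SE, limma adjusted p = 1.16e-04).

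Let-7, the differentiation-linked family that represses HMGA2 and LIN28B, was slightly higher in ES-2. Its 20 arms summed to 201280 and 212594 CPM in ES-2 and 168223 and 181474 CPM in MV3. Let-7c-3p passed the filter only through MV3 and was not called. Of 17 tested arms, 7 were called higher in ES-2 and 3 higher in MV3, beside 21.4% and 42.2% of all tested miRNAs (9 and 2 with TMM, and 3 to 6 and 2 to 3 with 1 library left out, fewest in ES-2's favour without ES-2 replicate 2). Let-7a-5p was at 119422 and 127669 CPM in ES-2 and 100942 and 109876 CPM in MV3 (log2 0.23 ± 0.074, SE, limma adjusted p = 0.0377), a call lost with any 1 library left out (adjusted p = 0.0585 to 0.432) and a difference of 0 after quantile normalization. Let-7a-5p held the same rank in every library, which fixes its quantile-normalized difference at 0. Let-7g-5p was at 15343 and 15617 CPM in ES-2 and 8466 and 8935 CPM in MV3 (adjusted p = 8.41e-05, limma), and kept its call. Let-7e-5p, named after its values were seen, was the only member of the shared seed called higher in MV3, with 4704 and 5379 CPM in ES-2 and 11181 and 11942 CPM in MV3.

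Let-7e lies in a cluster with miR-99b and miR-125a on chromosome 19 (chr19:51692612-51693339, within SPACA6). Its 6 tested miRNAs are arms of 3 hairpins. Of these, 5 were called higher in MV3 and none higher in ES-2, beside 42.2% and 21.4% of all tested miRNAs. MiR-99b-5p was at 2131 and 2086 CPM in ES-2 and 6943 and 7249 CPM in MV3 (log2 -1.75 ± 0.060, SE, limma adjusted p = 7.13e-06), and miR-125a-5p at 3810 and 3734 CPM against 8979 and 8909 CPM. Their seed mates from other clusters were higher in ES-2. MiR-100-5p was at 111540 and 110750 CPM in ES-2 and 75284 and 64566 CPM in MV3, and miR-125b-5p at 13240 and 12424 CPM against 10069 and 8708 CPM. These 2 calls were lost without ES-2 replicate 1 (log2 0.67 for miR-100-5p and 0.41 for miR-125b-5p) or replicate 2 (0.68 and 0.50). MiR-100-5p held the same rank in every library, so quantile normalization set its log2 difference to 0 and cannot show one.

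Summed over a seed, members of opposite direction offset each other. The miR-125 seed stood at 17050 and 16159 CPM in ES-2 and 19048 and 17617 CPM in MV3 and was not called on CPM (adjusted p = 0.104, limma over seed families), though it was called higher in ES-2 with TMM. The seed of miR-99 and miR-100, which is nearly all miR-100-5p, was at 114470 and 113598 CPM in ES-2 and 82758 and 72266 CPM in MV3. Over all 252 seed families tested, 160 (63.5%) were called, 53 (21.0%) higher in ES-2 and 107 (42.5%) higher in MV3, and with TMM 129 (51.2%), 68 (27.0%) higher in ES-2 and 61 (24.2%) higher in MV3. Of 33 seeds with at least 2 tested members, 8 held members called in both directions (7 with TMM). Sequences were at hand for 310 of the 346 tested miRNAs, and the other 36 entered no seed family.

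**Figure D3:**
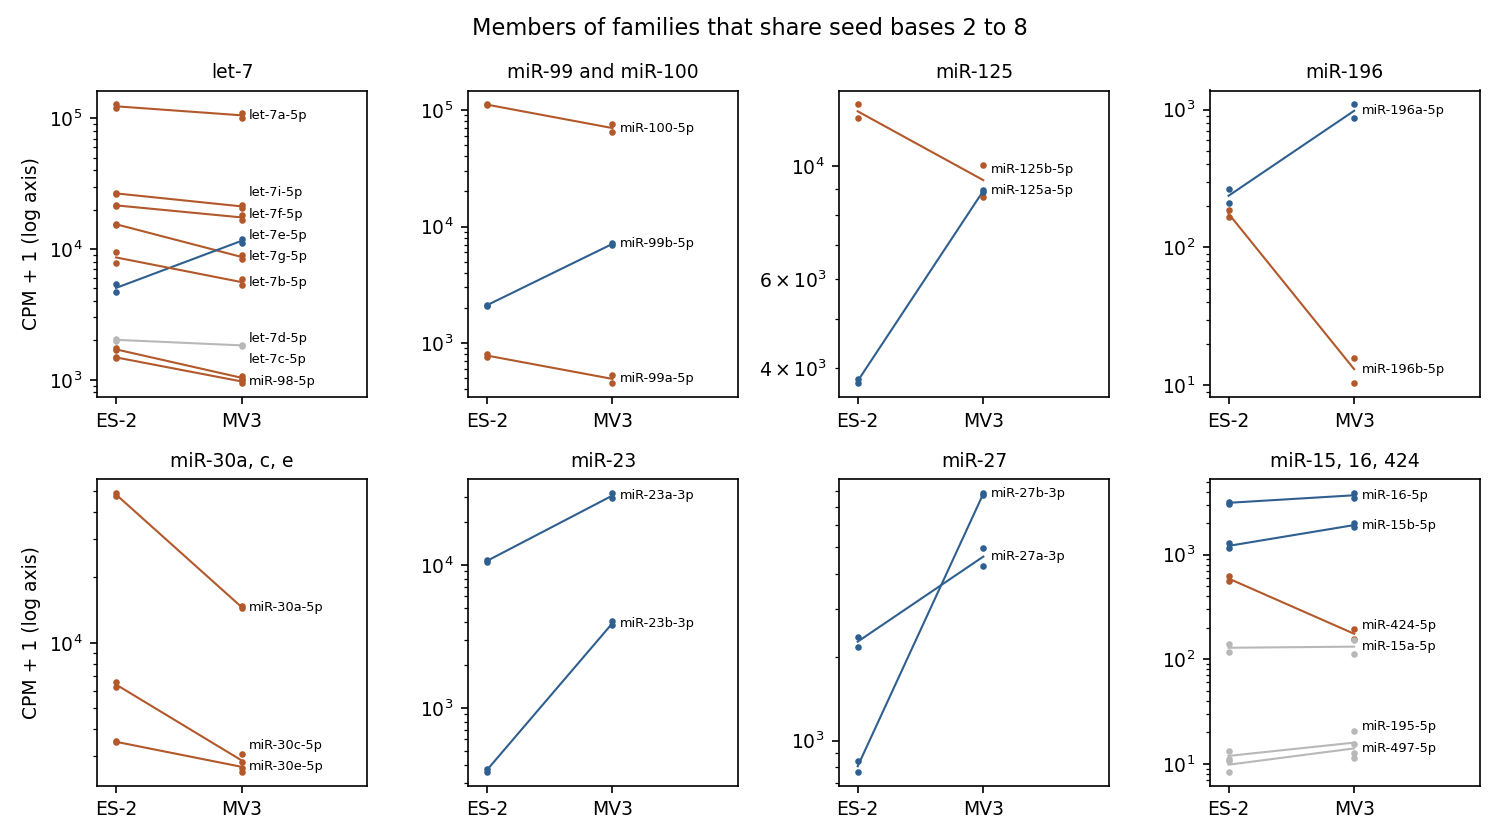
CPM + 1 (log y axes, scaled per panel) in the 2 ES-2 and 2 MV3 libraries for 8 families that share seed bases 2 to 8; points are libraries, lines join the means, and orange, blue and grey mark members called higher in ES-2, higher in MV3 or not called. MiR-196b-5p was higher in ES-2 and miR-196a-5p higher in MV3, and in the let-7 panel only let-7e-5p was called higher in MV3.

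The miR-15 and miR-16 family also held both directions. MiR-15b-5p was at 1147 and 1278 CPM in ES-2 and 1985 and 1849 CPM in MV3, higher in MV3 on CPM and not called with TMM. MiR-16-5p was at 3075 and 3184 CPM in ES-2 and 3500 and 3890 CPM in MV3, called higher in MV3 on CPM (limma adjusted p = 0.0332) but at 0.22 in favour of ES-2 with TMM. That call was lost without ES-2 replicate 1, ES-2 replicate 2 or MV3 replicate 2 (adjusted p = 0.201, 0.152 and 0.0962). Together with miR-424-5p and miR-503-5p above, 3 of 10 tested arms of the list were called higher in ES-2 and 4 higher in MV3 (3 and 2 with TMM), beside 21.4% and 42.2% of all tested miRNAs. MiR-497-5p, among the 10, passed the filter only through MV3 and was not called.

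MiR-186 and miR-340 differed little in their main strands. MiR-186-5p was at 1132 and 1225 CPM in ES-2 and 1051 and 1031 CPM in MV3 (limma adjusted p = 0.0898). MiR-340-5p was at 328 and 347 CPM in ES-2 and 276 and 350 CPM in MV3 (log2 0.12 ± 0.14, SE, limma adjusted p = 0.497), and turned to -0.0510 without MV3 replicate 1. Both were called higher in ES-2 with TMM. The opposite strand miR-340-3p was at 55.3 and 60.6 CPM in ES-2 and 141 and 143 CPM in MV3, higher in MV3 (limma adjusted p = 0.00181).

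Of the miR-17-92 cluster and its paralogs, 7 of 17 tested arms were called higher in ES-2 and 3 higher in MV3 (8 and 1 with TMM), beside 21.4% and 42.2% of all tested miRNAs. The first of these counts was 4 without either ES-2 library, 6 without MV3 replicate 1 and 7 without MV3 replicate 2, and the second was 1, 1, 2 and 1 in the same order of libraries. MiR-20a-5p was at 1506 and 1468 CPM in ES-2 and 848 and 869 CPM in MV3. MiR-93-5p, of the paralogous cluster in MCM7, was at 4122 and 4534 CPM in ES-2 and 5425 and 6510 CPM in MV3, called on CPM (limma adjusted p = 0.0100) but not with TMM, where the log2 difference was -0.0046, at 0.17 in favour of ES-2 after quantile normalization, and lost without ES-2 replicate 1, ES-2 replicate 2 or MV3 replicate 2 (adjusted p = 0.157, 0.104 and 0.0565). MiR-25-3p was not called on CPM (2649 and 2589 against 3010 and 2728 CPM) and was called higher in ES-2 with TMM (log2 0.32). MiR-146a-5p, an inflammation-linked miRNA, was at 397 and 380 CPM in ES-2 and 599 and 703 CPM in MV3, higher on CPM (limma adjusted p = 0.00201), not called with TMM, and lost without ES-2 replicate 1 or 2 (adjusted p = 0.0548 and 0.0620).

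Calls of miRNAs from the same hairpin cluster mostly pointed to the same line. Tested hairpins on the same strand and no more than 10000 bases apart formed 36 clusters of at least 2, and 30 of these had at least 2 tested miRNAs that map to a single locus and share their sequence with no other tested miRNA. Calls were found only higher in ES-2 in 9 clusters, only higher in MV3 in 15, in both directions in 3 and not at all in 3. Of all tested miRNAs, 21.4% were called higher in ES-2 and 42.2% higher in MV3. The 3 mixed clusters held miR-30e, miR-25 with miR-106b, and miR-424 with miR-450b, and with TMM no cluster held both directions. In 5 of the 30 clusters every such miRNA passed the filter through 1 line only. In 19 clusters at least 2 miRNAs were called and all in 1 direction. The miRNAs counted are arms, and in some clusters those counted are both arms of 1 hairpin, as for miR-30e. Members of a cluster are cut from shared transcripts and are not independent of each other.

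**Figure D4:**
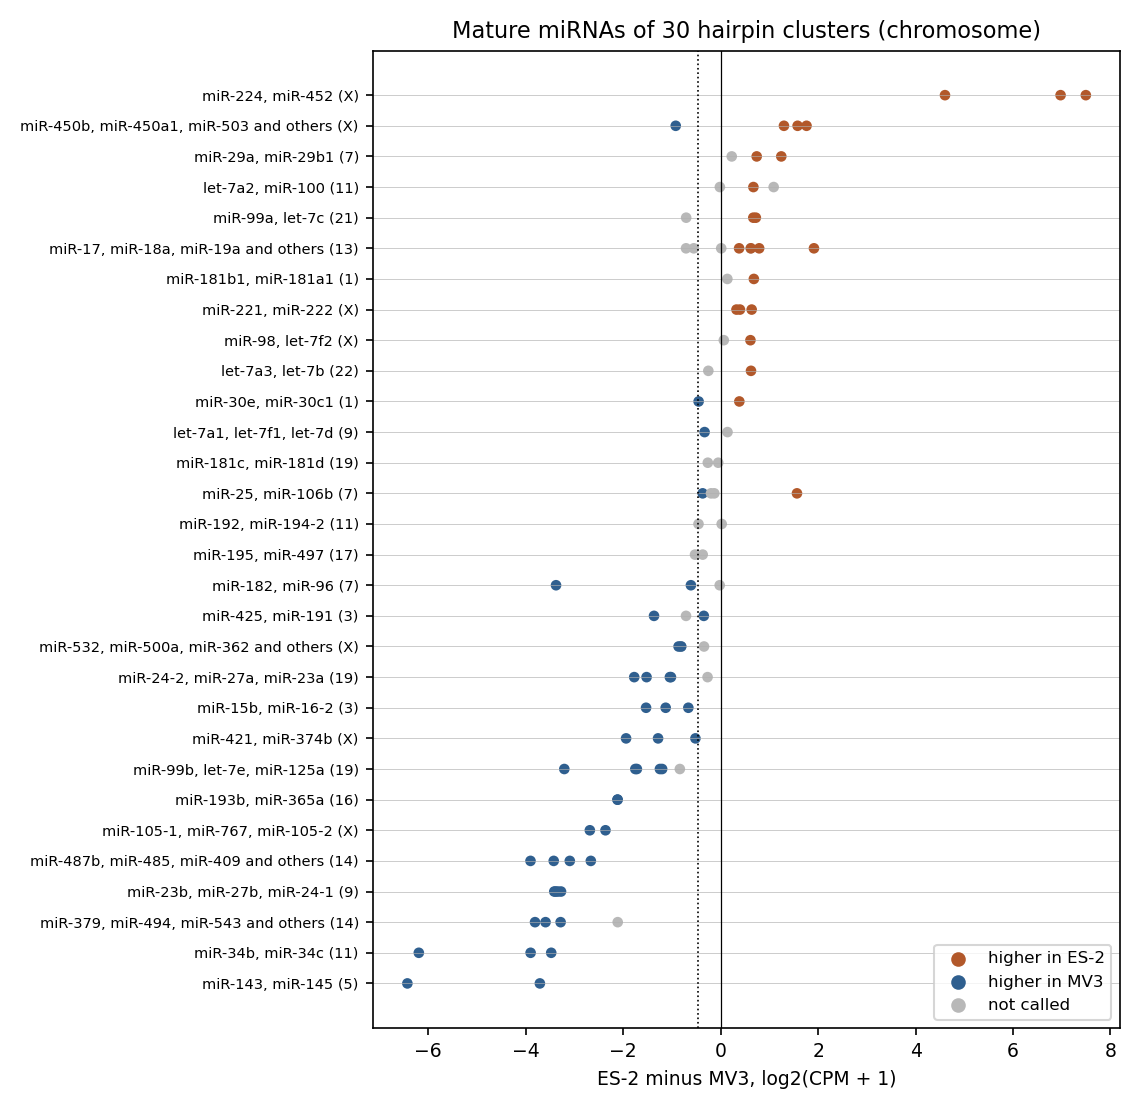
ES-2 minus MV3 log2 difference (x axis, log2(CPM + 1)) of each single-locus miRNA in 30 hairpin clusters (rows, chromosome in brackets, up to 3 hairpins named); colours give the call, the solid line marks 0 and the dotted line the median of all 346 tested miRNAs (-0.46). The miR-224 cluster stands at the ES-2 end and the miR-143 and miR-34 clusters at the MV3 end.

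The ratio of the 5p to the 3p arm was mostly higher in ES-2. For 32 hairpins both arms had a mean of at least 100 CPM in either line and reads in all 4 libraries, and the log2 ratio of 5p to 3p was higher in ES-2 for 28 of them and lower for 4, with a median difference of 0.47. The ratios of the lines' libraries did not overlap for 21 of the 28 and for 3 of the 4. Between the 2 libraries of a line, the ratio of a hairpin differed by a median of 0.20 in ES-2 and 0.17 in MV3. A ratio within a library does not depend on its scaling. Among the 29 hairpins whose arms map to a single locus and share no sequence with another miRNA, 26 had the higher ratio in ES-2 (median difference 0.47). These are descriptions without a test.

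Among these 32 hairpins, the widest shifts toward 5p in ES-2 were those of miR-25, miR-93 and miR-99b. The 5p arm made up 5.75% and 6.75% of the miR-25 reads in ES-2 and 1.83% and 2.15% in MV3. For miR-99b the 5p share was 94.3% and 91.8% in ES-2 and 82.7% and 83.7% in MV3, and for miR-93 it was 99.0% and 99.2% against 96.5% and 97.9%. For miR-340 the 5p share was 85.6% and 85.2% in ES-2 and 66.3% and 71.0% in MV3. In the opposite direction, the 5p share of miR-361 was 62.4% and 61.9% in ES-2 and 70.7% and 69.0% in MV3, and that of miR-28 was 38.0% and 34.7% against 44.2% and 43.1%. In each of these hairpins the 2 lines' libraries were separate. Where both arms were called and neither shared its sequence with another tested miRNA (37 hairpins), they pointed to the same line in 35 and to opposite lines in 2 (let-7a and miR-30e). Among the 35 were miR-142, miR-452, miR-708, miR-34b, miR-34c and miR-486. Both arms of each of these passed the filter only through a single line, which sets their common direction. Of all tested miRNAs, 21.4% were called higher in ES-2 and 42.2% higher in MV3. Let-7a-3p and let-7a-5p come from several loci.

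**Figure D5:**
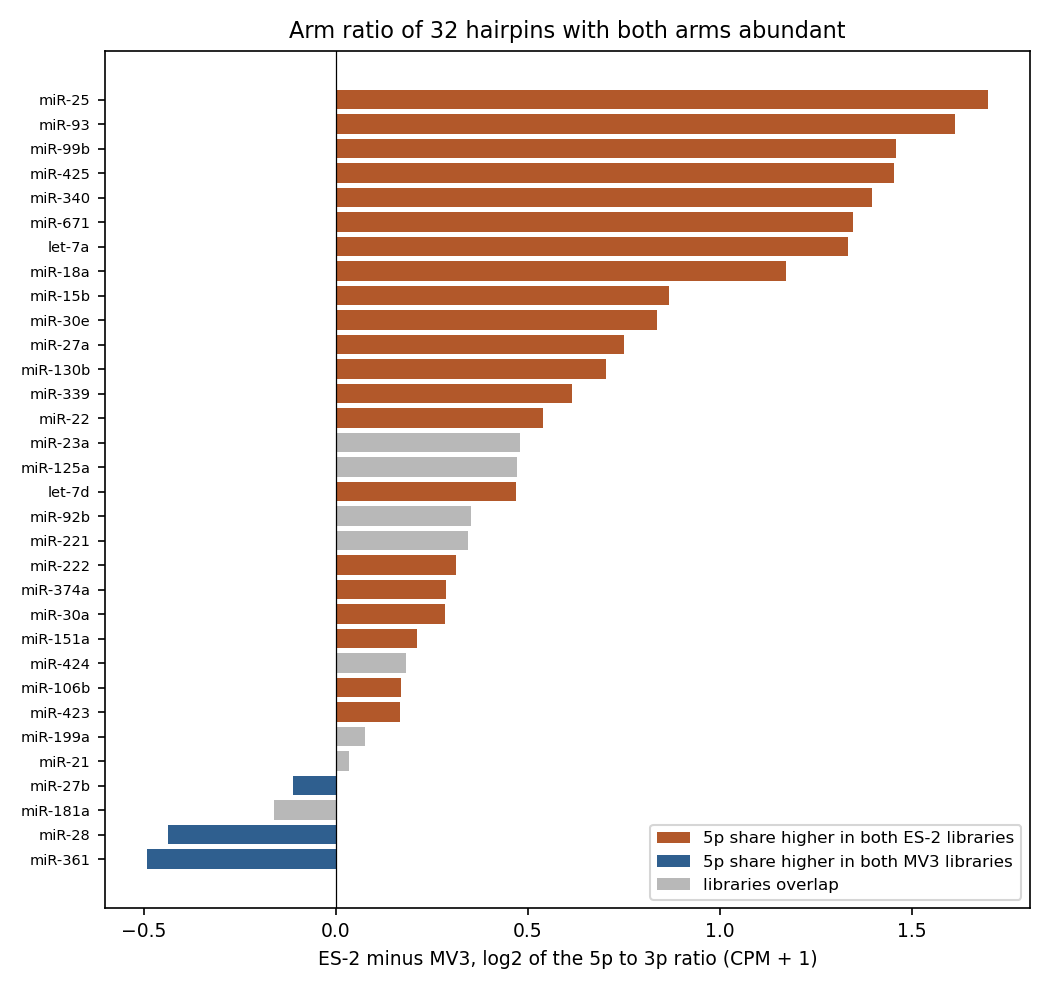
Difference between ES-2 and MV3 in the log2 ratio of 5p to 3p (x axis, on CPM + 1) for 32 hairpins (rows) with both arms abundant; bars start at 0, and grey bars mark hairpins whose libraries overlap between the lines. Bars point to the right, toward 5p in ES-2, for 28 hairpins.

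Over those 32 hairpins the median log2 ratio of 5p to 3p was 0.83 and 0.77 in the ES-2 libraries and 0.28 and 0.42 in the MV3 libraries. In libraries of the same kit it was 0.46 and 0.57 in A-549 and 0.41 in PANC-1, so that the 2 ES-2 libraries had the highest medians of these 7. In the libraries prepared elsewhere it was -0.50 and 0.69 in BE(2)-C and -1.37 and -1.17 in Hep-G2. The BE(2)-C replicates thus lay further apart than ES-2 and MV3. Over all tested miRNAs named as an arm, 45 of 155 5p miRNAs were called higher in ES-2 and 50 higher in MV3, whereas for 156 3p miRNAs these counts were 24 and 81 (with TMM 54 and 34 for 5p, 34 and 51 for 3p). The median log2 difference was -0.20 for 5p and -0.71 for 3p miRNAs on CPM, and 0.24 and -0.29 with TMM. The cause of the difference in arm ratios was not tested.

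The remaining lists are given by counts. The miR-29 family had 3 of 5 tested arms higher in ES-2 and none higher in MV3. The miR-183 cluster had 3 of 5 higher in MV3 (2 with TMM). For both miR-29 and miR-183 the count was lower in some of the fits with 1 library left out. The miR-26 and miR-101 list also had 3 of 5 higher in MV3, though with TMM 1 of these 5 was higher in each line. In the miR-130 and miR-301 list 4 of 7 were higher in MV3 (1 with TMM), in the miR-148 and miR-152 family 2 of 3, and for miR-31 both arms (1 with TMM). The miR-181 family had 2 of 8 in each direction (2 higher in ES-2 and 1 higher in MV3 with TMM), and of 3 tested arms of the miR-192 and miR-194 list none was called. With 1 library left out (ES-2 replicate 1, ES-2 replicate 2, MV3 replicate 1 and MV3 replicate 2 in turn), the counts higher in MV3 were 2, 1, 1 and 2 for the miR-26 list, 1, 2, 2 and 2 for the miR-130 list, 2, 1, 2 and 2 for the miR-148 list and 1 each for miR-31, and for the miR-181 family the count was 0, 0, 1 and 2 higher in ES-2 and 1, 2, 2 and 1 higher in MV3. Each stood beside 21.4% of all tested miRNAs higher in ES-2 and 42.2% higher in MV3. Some tested arms passed the filter only through MV3, which sets their direction. These were 2 of the miR-181 family and 1 each of the miR-183, miR-26, miR-31 and miR-192 lists.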

How the data were processed

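Per the labels' processing notes, the authors clipped adapters (cutadapt 1.14), aligned reads (Bowtie2 2.3.2) to hg38 and counted them (featureCounts 1.5.3), but parameters for small RNAs and the treatment of multi-mapping reads are not given in the sources used here. The deposited values of both lines were a scaled signal, CPM divided by a TMM factor set by the authors within each table of 2 libraries. The 2 libraries of a line differed beyond sampling noise (chi-square per degree of freedom 8.53 in ES-2, 13.4 in MV3). Because all nonzero values (100%) were whole multiples of the value of 1 read (tolerance 0.02), whole reads were recovered, rows of a mature miRNA summed and CPM recomputed per library. Moderated tests in limma 3.58.1 (R 4.3.3) were run on log2(CPM + 1) of the 346 miRNAs with a mean of at least 10 CPM in either line (eBayes with trend, two-sided, Benjamini-Hochberg, 0.05, cell line as the only factor), using these 4 libraries. A fold change on this scale understates the change of low miRNAs. The fit was tested on simulated data. Folds against a line at 0 used 3 reads over both of its libraries, and pooled read ratios have exact 95% counting intervals. Named miRNAs were the 10 called miRNAs with the largest difference in each direction (mean of 100 CPM or more, no overlap of libraries), the 10 most abundant, up to 4 of each list by abundance for lists described by member, the markers, 5 seed families and 3 hairpins per direction. Members and lists were chosen with earlier results of these data known. Hairpin positions and sequences are from RefSeq and host genes from GENCODE. Alternatives were TMM, DESeq2 1.42.0 size factors, quantile normalization, deposited values, pseudocounts of 0.5 and 5, no filter and 100 CPM, the 7 NEXTflex or all 11 libraries, a replicate block, each library left out, genomic copies kept apart, edgeR 4.0.16 and DESeq2.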

Additional observations from a re-analysis of the deposited data

How the results depend on the processing

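Of 220 calls, 213 were shared with the fit that had the replicate number as a block, which made 219 calls (75 higher in ES-2, 144 higher in MV3). Same-numbered libraries did not deviate together over the tested miRNAs (correlation -0.06). Whether they shared a preparation or a sequencing run was not tested. Scaling changed the balance: the count higher in MV3 (146) was 93 with TMM, 95 with DESeq2 size factors and 82 after quantile normalization, with 93 of 191 calls in edgeR's quasi-likelihood test and 82 in DESeq2 on whole reads, and 93 with the 100 CPM filter, where 174 miRNAs were tested. The median difference (-0.46) was -0.016, -0.035 and -0.018 with the first 3, -0.032 in edgeR and -0.048 in DESeq2.

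With 1 library left out, where the lone library is assumed to vary like the other line, 124 to 150 miRNAs were called (124 without ES-2 replicate 1, 136 without ES-2 replicate 2), 40 to 63 higher in ES-2 (40 without either ES-2 library) and 84 to 96 higher in MV3, with 100 to 124 seed families. Such fits have 1 residual degree of freedom among samples.

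Log2 differences that changed sign, with TMM, DESeq2 size factors, edgeR and DESeq2 in turn, were 0.31, 0.29, 0.32 and 0.29 for miR-10b-5p (quantile 0.44), 0.22, 0.20, 0.22 and 0.20 for miR-16-5p (0.30), 0.32, 0.30, 0.32 and 0.30 for miR-25-3p (0.43), 0.18, 0.16, 0.18 and 0.16 for miR-21-3p, and 0.21, 0.19, 0.21 and 0.19 for miR-21-5p. After quantile normalization miR-93-5p was at 0.17 and miR-128-3p at 0.019, and without MV3 replicate 1 miR-340-5p was at -0.0510. Depth limits weak miRNAs, for which 3 reads were 1.31 to 2.56 CPM per library.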
